A study of Mus musculus with 9 samples.

Results

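Histones are the proteins around which DNA is wound, and the mouse genome carries most of them as families of near-identical genes. A histone family of 68 genes was taken from the deposited table of 32593 genes by name: every row whose symbol began with Hist1h to Hist4h, with H1f, or with H2ac, H2bc, H3c or H4c followed by a digit. It held 10 genes for the linker histone H1, 18 for H2A, 16 for H2B, 12 for H3 and 12 for H4. Of these, 56 lay on chromosome 13, and 55 of the 56 lay in the main histone cluster, chr13:21715763-23934156 (GRCm38). The family came to notice through 2 of its genes, Hist1h2bq and H2bc13, which had been called in earlier work on the same libraries, so their values in those comparisons are given as a description.

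The libraries were RNA-seq of mouse kidney after treatment with angiotensin II (AngII), a peptide that constricts vessels and raises blood pressure. The group named AngII had the genotype Tmemfl/fl, that is, floxed alleles without Cre. The group named CDH16KO-AngII was CDH16 Cre+/Tmemfl/fl, and the group named GRPR-AngII was CDH16 Cre+/GRPRfl/fl. Each group had 3 libraries, all received AngII, and no group here was untreated. Cdh16 encodes a cadherin of kidney tubule cells, so a Cre under its control acts in tubular epithelium, and the rest of the kidney keeps its alleles. Both Cre-positive groups carry Cre and the AngII group does not, and no GRPRfl/fl group without Cre was analysed here, so an effect of Cre or of line background cannot be told apart from that of the floxed allele. The labels do not say whether the libraries of a group came from separate animals, and p-values then measure the spread between these libraries. Nor do they give age, sex, dose or duration.

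Core histones H2A, H2B, H3 and H4 form the nucleosome, and H1 binds the DNA between nucleosomes. Replication-dependent histone genes are transcribed mainly in S phase, lack introns, and make mRNAs that end in a conserved stem-loop bound by the stem-loop binding protein SLBP instead of a poly(A) tail. Replacement histones are made outside S phase from polyadenylated mRNAs, and in the mostly non-dividing cells of the adult kidney they supply much of the new histone.

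The stem-loop is the mark by which the family name can be checked against the gene models. The known histone stem-loop motif, with pyrimidine or purine changes allowed in the middle of the stem, was searched on the transcript strand of the GENCODE M21 models. The models of 39 members held it, and 51 of all 32494 models did (0.157%). The 3 most frequent forms were these, with the paired stem in capitals and the loop in lower case:
H2A, H2B, H3 and H1 form, in 22 members: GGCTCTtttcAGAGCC
H4 form, in 6 members: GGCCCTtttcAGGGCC
H1, H2B and H3 form, in 6 members: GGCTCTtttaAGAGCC
The second form occurred in H4 genes and in no other type. In 17 members the model ended within 50 bases of the stem-loop, as a processed replication-dependent mRNA does. In 22 members the model ran on further, and in 29 it held no stem-loop. Some of these 29 models hold the coding sequence alone, such as that of H2bc13 at 381 bases. A stem-loop beyond it could not be found there, and only 1 transcript per gene was searched. A poly(A) signal (AATAAA or ATTAAA in the last 50 bases) stood in 16 members and in 50.47% of all models. The models without a stem-loop thus do not settle which members lack one. The name of the family was not met by all members. The rule also took the replacement linker histones H1f0 and H1f10, the oocyte linker histone H1f8, and 4 rows annotated as pseudogenes. The library kit is an mRNA kit by its name, and whether it selects poly(A) RNA remains not given in the sources used here. Its effect on transcripts without a tail was not tested.

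Library totals ran from 40731748 to 60449117 counts, and mitochondria-coded genes took 16.11% to 26.4% of them. Levels below are in counts per 1000000 counts of the library total after that total was multiplied by its TMM factor, which corrects for composition (CPM, the same scale throughout), and FPKM, which also divides by transcript length, is used where genes are compared. Sting1, the gene of STING named in the study's title and earlier called Tmem173, had 4.62, 1.77 and 5.33 CPM in the AngII libraries, 2.15, 2.24 and 2.04 in CDH16KO-AngII and 2.90, 2.90 and 2.68 in GRPR-AngII. The AngII range enclosed the CDH16KO-AngII values (exact two-sided permutation p = 0.4, smallest possible 0.1). This check thus did not separate CDH16KO-AngII from AngII. The AngII range enclosed the GRPR-AngII values as well. Between the Cre-positive groups the ranges stood apart, with CDH16KO-AngII lower than GRPR-AngII. The exact two-sided permutation test gave p = 0.1 there, the smallest possible. Of 25 cell type markers in the table, mostly of kidney tubule with some of glomerulus, vessel, stroma, urothelium and fat, 23 had enough reads to be tested. The fat marker Adipoq had at most 0.0564 CPM.

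Most of the family was close to silent. Of the 68 genes, 50 had a mean FPKM under 1, and 28 had 0 counts in some library. Only 19 passed the filter for testing, 1 FPKM or more in 3 libraries or more: 3 of H1, 1 of H2A, 9 of H2B, 2 of H3 and 4 of H4. Among these 19, Hist1h2bq, H2bc13 and H2bc6 passed through 1 group alone, CDH16KO-AngII, so they could enter the test only by being high there. The 49 genes not tested had mean levels between 0.0039 CPM (H3c1) and 2.07 CPM (Hist1h2al), with a median of 0.0855 CPM. Of the members, 42 shared at least 95% identity over at least 50% of their model with another member. The share was taken of each gene's own model, so H2bc4, with a model of 1156 bases, was not counted. Shorter models did match it, such as that of H2bc13 at 98.42% identity. Reads from such copies can be assigned to one copy or another by the authors' counting, so the levels of single copies are uncertain and summed levels are given as well.

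The first comparison asks how kidneys with tubular Cre and floxed Tmem differ from floxed kidneys without Cre. With edgeR's quasi-likelihood test and Benjamini-Hochberg adjustment over 12507 genes, 2 of the 19 tested members were called higher in CDH16KO-AngII than in AngII and 0 lower, where 0.168% of all genes tested were called, 0.104% higher and 0.064% lower. The 3 CDH16KO-AngII libraries lay above all 3 AngII libraries for 8 of the 19 and below them for 2, where the shares over all genes tested were 6.65% and 5.5%. Over all 68 members the counts were 13 above and 2 below. Of these 68, 49 were under the filter, and no share over all genes of the deposited table was computed to set beside them. In GRPR-AngII against AngII, 0 of the 19 were called by edgeR, against 0% of all genes. None of the 19 had an unadjusted p under 0.05 there, a level that 6.74% of all genes reached, and DESeq2 called 0 of the 19 and 0.36% of all genes. The ranges did not overlap for 1 tested member above and 3 below, against 6.85% and 7.2%. In GRPR-AngII against CDH16KO-AngII, 2 of the 19 were called, both lower in GRPR-AngII, where 0.144% of all genes were called, 0.088% lower and 0.056% higher. The ranges stood apart for 2 higher and 7 lower, where 4.66% and 5.3% of all genes did so. The comparisons share libraries, so they are not separate evidence, and nothing is read from the counts in the first and the last, by which the family was noticed.

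**Figure D1:**
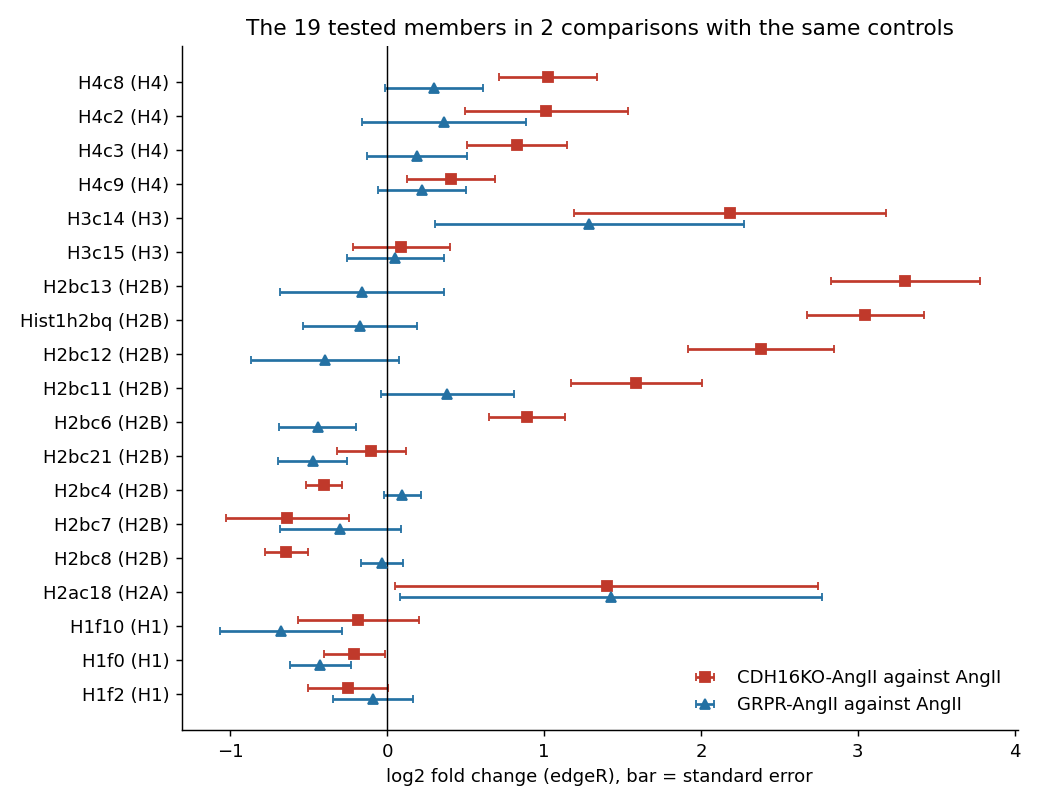
Log2 fold changes (x axis, edgeR, all 9 libraries in 1 fit) of the 19 tested members, grouped by histone type (y axis), in CDH16KO-AngII against AngII (squares) and GRPR-AngII against AngII (triangles), with bars of 1 standard error. H2bc13 (3.30) and Hist1h2bq (3.05) lie farthest to the right in the first comparison and near 0 in the second, and both comparisons use the same AngII libraries.

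H2B pairs with H2A in the nucleosome, and its genes held both called members. Hist1h2bq (chr13:21806612-21810197, minus strand, a model of 3 exons) had 31, 40 and 46 counts in the AngII libraries, 209, 500 and 311 in CDH16KO-AngII and 31, 48 and 30 in GRPR-AngII. The CDH16KO-AngII libraries were all above the other 6, and the AngII and GRPR-AngII libraries overlapped. As levels, these were 0.784 ± 0.249 CPM (SD, n = 3), 6.48 ± 2.43 CPM and 0.690 ± 0.0755 CPM. The log2 fold change of CDH16KO-AngII against AngII was 3.05 (SE 0.37), or 8.28-fold higher. GRPR-AngII against CDH16KO-AngII gave -3.22 (SE 0.37). H2bc13 (chr13:21715763-21716143, minus strand, 1 exon) is the shortest of these models and had the lowest counts: 9, 7 and 9 in AngII, 46, 145 and 70 in CDH16KO-AngII, and 8, 9 and 6 in GRPR-AngII. The order of libraries was like that of Hist1h2bq, with CDH16KO-AngII 2 highest and no overlap with the other groups. Its log2 fold change was 3.30 (SE 0.48) in CDH16KO-AngII against AngII and -3.46 (SE 0.48) in GRPR-AngII against CDH16KO-AngII.

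The calls were not kept in every fit that left out 1 library. Of the 9 fits that each left out 1 library, Hist1h2bq was called in CDH16KO-AngII against AngII in 6 and H2bc13 in 3. Neither was called without AngII 1, without AngII 2 or without CDH16KO-AngII 3. H2bc13 was also not called without AngII 3, nor without GRPR-AngII 1 or GRPR-AngII 3, which lie outside this comparison. Both were called without CDH16KO-AngII 2, where their counts were highest. Such fits also hold fewer libraries. Over the 9 fits the log2 fold change ran from 2.76 to 3.31 for Hist1h2bq and from 2.83 to 3.60 for H2bc13. In GRPR-AngII against CDH16KO-AngII each was called in 5 of 9, and neither without CDH16KO-AngII 3 or without any 1 of the GRPR-AngII libraries.

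Another 3 H2B genes had a similar order of libraries and did not pass, or were not tested. They were picked with Hist1h2bq and H2bc13 after their values were seen, and no test was made on the set. Hist1h2br (chr13:21833743-21837530, plus strand) fell under the filter and had 21, 30 and 40 counts in AngII, 112, 404 and 217 in CDH16KO-AngII, and 36, 38 and 19 in GRPR-AngII. In a fit without a filter its log2 fold change against AngII was 2.90 (SE 0.49). The whole model of Hist1h2bq matched that of Hist1h2br at 99.75% identity over 99.35% of its bases. The counts of Hist1h2bq and Hist1h2br therefore cannot be taken as separate observations. H2bc12 (chr13:22035870-22036345, plus strand) had 31, 36 and 55 counts, then 120, 374 and 188, then 42, 29 and 25, a log2 fold change of 2.38 (SE 0.47) that was not called. H2bc11 (chr13:22043214-22043676, plus strand) had 21, 18 and 18 counts, then 31, 94 and 53, then 23, 34 and 20, with 1.59 (SE 0.42), also not called. For all 5 genes the lowest CDH16KO-AngII library was number 1 and the highest was number 2, and in CPM all 3 lay above every AngII and GRPR-AngII library.

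Summed, the 5 genes reached 2.77 ± 0.944 CPM in AngII, 18.2 ± 8.46 CPM in CDH16KO-AngII and 2.54 ± 0.284 CPM in GRPR-AngII (SD, n = 3 each). Within CDH16KO-AngII the split among the 5 was similar between libraries: Hist1h2bq took 40.35%, 32.96% and 37.07% of their counts and H2bc11 took 5.985%, 6.196% and 6.317%. In AngII, H2bc11 took 18.58%, 13.74% and 10.71%.

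**Figure D2:**
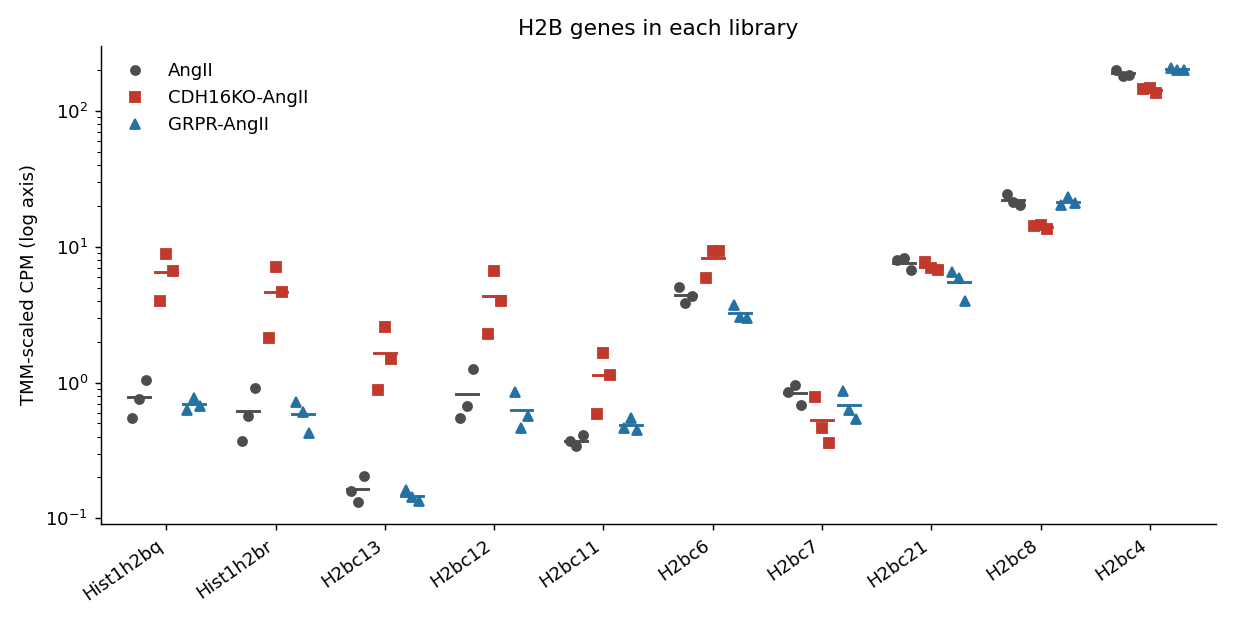
TMM-scaled CPM on a log axis (y) of 10 H2B genes (x) in each of the 9 libraries; points are libraries and bars are group means. In the 5 genes at the left the CDH16KO-AngII squares lie above all other points, and in H2bc8 and H2bc4 at the right they lie below.

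The abundant H2B genes had lower values in CDH16KO-AngII and did not pass the edgeR test. H2bc4 (chr13:23684199-23692908, plus strand), which took 81.02% of the H2B sum, had 200, 181 and 185 CPM in AngII, 144, 147 and 136 in CDH16KO-AngII, and 207, 199 and 198 in GRPR-AngII. All CDH16KO-AngII libraries were below the other 6, and GRPR-AngII was 1.07-fold above AngII in the fit. The log2 fold change against AngII was -0.40 (SE 0.12) and was not called. H2bc8 (chr13:23571396-23572013, plus strand) had 24.4, 21.3 and 20.2 CPM in AngII, 14.1, 14.5 and 13.6 in CDH16KO-AngII and 20.3, 23.2 and 20.8 in GRPR-AngII, a log2 fold change of -0.64 (SE 0.14) against AngII, not called either. DESeq2, run as another tool, called 6 of the 19 members where it called 1.68% of all genes: H2bc4 and H2bc8 lower, and Hist1h2bq, H2bc13, H2bc12 and H2bc6 higher. In GRPR-AngII against CDH16KO-AngII it also called 6, and 1.4% of all genes. Hist1h2bq, H2bc13 and H2bc6 could enter the test only by being high in CDH16KO-AngII, so nothing is read from either count. In these whole-kidney libraries fewer cells of a type and less RNA per cell cannot be told apart. The cell type markers did not move one way: 13 of the 23 tested had positive and 10 negative log2 fold changes in CDH16KO-AngII against AngII, with a median of 0.01 beside 0.01 over all genes, and 0 were called. Their summed level was 30650 to 35610 CPM in CDH16KO-AngII, 36570 to 39110 in AngII and 36280 to 52860 in GRPR-AngII. Most of that sum was 1 proximal tubule gene, Kap, at 19490 to 24410, 22500 to 27850 and 24190 to 39990 CPM in the same order. Of the other proximal tubule markers, the phosphate carrier Slc34a1 had 3596 to 4551 CPM in CDH16KO-AngII and 5347 to 6366 in AngII, while the glucose carrier Slc5a2 had 541.9 to 701.9 and 416.2 to 490.1 CPM, so the ranges of both stood apart in opposite directions. Their part in the H2B values was not tested.

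The remaining tested H2B genes were H2bc6, H2bc7 and H2bc21. H2bc6, whose model spans H1f4 on the same strand, had 5.04, 3.86 and 4.33 CPM in AngII, 5.91, 9.34 and 9.28 in CDH16KO-AngII, and 3.70, 3.02 and 2.99 in GRPR-AngII. Its groups did not overlap, and its log2 fold change against AngII was 0.89 (SE 0.24), not called. H2bc7 averaged 0.833 ± 0.139, 0.534 ± 0.22 and 0.677 ± 0.168 CPM and H2bc21 averaged 7.61 ± 0.821, 7.10 ± 0.496 and 5.47 ± 1.34 CPM (AngII, CDH16KO-AngII and GRPR-AngII, SD, n = 3). Both overlapped between CDH16KO-AngII and AngII.

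The H2B genes that were higher and those that were lower code for almost the same sequence. The first 240 bases of the coding sequence are shown for Hist1h2bq, for H2bc13, the other called gene, and for H2bc4, the abundant gene that was lower, each 5′ to 3′ as read from the GENCODE M21 models. Capitals in the second and the third mark bases that differ from Hist1h2bq, and 3 of the 4 differences of H2bc13 fall in this stretch.
Hist1h2bq: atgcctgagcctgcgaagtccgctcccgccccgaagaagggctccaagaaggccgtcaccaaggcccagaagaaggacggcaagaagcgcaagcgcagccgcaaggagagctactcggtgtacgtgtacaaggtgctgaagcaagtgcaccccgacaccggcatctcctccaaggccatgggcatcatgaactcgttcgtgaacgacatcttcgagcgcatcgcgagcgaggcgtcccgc
H2bc13: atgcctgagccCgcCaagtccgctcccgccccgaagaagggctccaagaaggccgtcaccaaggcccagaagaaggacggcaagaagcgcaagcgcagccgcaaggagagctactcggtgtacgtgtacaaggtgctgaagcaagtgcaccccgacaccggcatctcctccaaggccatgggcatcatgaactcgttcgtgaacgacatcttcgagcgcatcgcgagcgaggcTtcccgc
H2bc4: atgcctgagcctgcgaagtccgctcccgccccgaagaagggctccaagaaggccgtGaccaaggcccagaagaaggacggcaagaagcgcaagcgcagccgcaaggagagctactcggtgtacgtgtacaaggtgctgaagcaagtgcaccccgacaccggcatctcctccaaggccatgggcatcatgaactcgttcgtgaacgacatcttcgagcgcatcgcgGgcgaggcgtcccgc
Over the whole coding sequence of 381 bases Hist1h2br had 0 differences from Hist1h2bq, H2bc11 and H2bc4 had 2 each, and H2bc13 had 4. H2bc12, H2bc6, H2bc7 and Hist1h2bp had 6, and H2bc8 had 7. H2bc11 and H2bc4, equally near to Hist1h2bq, differed in direction, with log2 fold changes of 1.59 and -0.40. Reads inside the coding sequence can therefore separate these copies only where they cover a base that differs, and how often they did was not tested. How the authors' counting divided such reads remains not given in the sources used here. The 5 genes together took 0.833%, 1.121% and 1.726% of all H2B counts in AngII, 5.346%, 12.88% and 9.589% in CDH16KO-AngII and 1.157%, 1.074% and 0.9764% in GRPR-AngII. When all members that share sequence were merged before the fit, 0 members were called in any of the comparisons. The merged H2B row held H2bc4, at 81.02% of the H2B sum, beside the 5 genes. It could therefore not show a change of the 5 genes alone, and nothing is read from it about them.

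**Figure D3:**
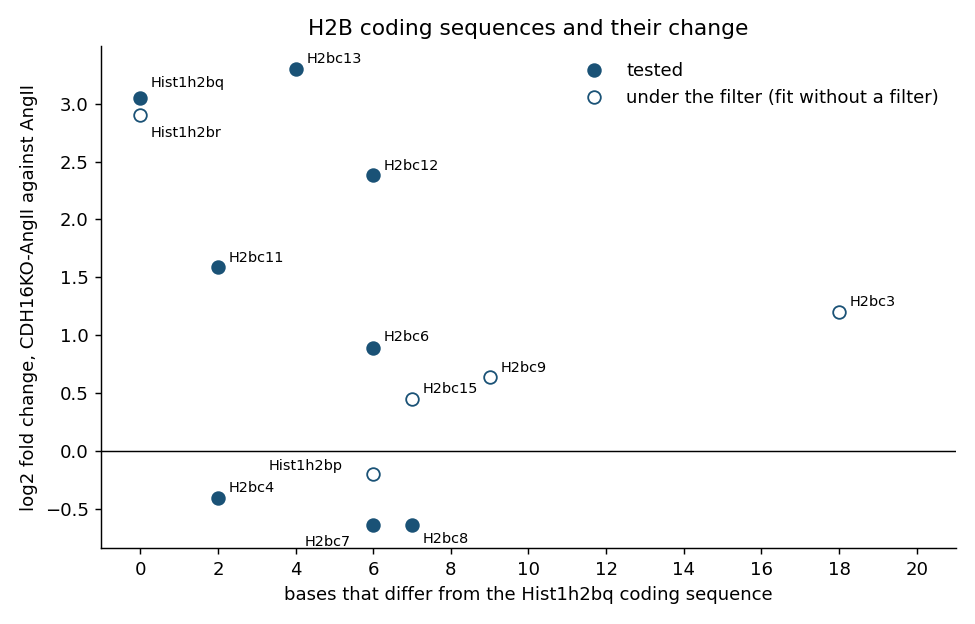
Log2 fold change of CDH16KO-AngII against AngII (y axis) of H2B genes by the number of bases, of 381, at which their coding sequence differs from that of Hist1h2bq (x axis); filled points were tested, open points fell under the filter and come from a fit without one. Genes with 2 differences lie at 1.59 (H2bc11) and -0.40 (H2bc4); H2bc21 (48 differences) and H2bc14 (0 counts in all AngII libraries) are not drawn.

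Genes of H2A and H2B often lie head to head and share the stretch between their starts. There were 13 such pairs, with 176 to 302 bases between the annotated starts, and each of the 5 H2B genes had an H2A partner: H2ac13 with H2bc13, Hist1h2ao with Hist1h2bq, Hist1h2ap with Hist1h2br, H2ac12 with H2bc12 and H2ac11 with H2bc11. The 5 partners had 0 to 16 counts per library in AngII, 0 to 18 in CDH16KO-AngII and 1 to 20 in GRPR-AngII. Over the 3 libraries of a group the partners summed to 73, 62 and 78 counts, where the H2B genes summed to 412, 2874 and 398. The H2A side of these pairs was thus at similar counts in all groups, at a depth that limits what could be seen.

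The 150 bases before the start of transcription are shown for Hist1h2bq, for H2bc12 and for H2bc8, to set 2 genes that were higher beside 1 that was lower. They are RefSeq windows on GRCm38.p6, 5′ to 3′ on the gene's own strand, with CCAAT (or ATTGG), the octamer ATTTGCAT (bound by POU factors, a known element of H2B promoters) and TATAAA in capitals.
Hist1h2bq, chr13:21810200-21810349, minus strand: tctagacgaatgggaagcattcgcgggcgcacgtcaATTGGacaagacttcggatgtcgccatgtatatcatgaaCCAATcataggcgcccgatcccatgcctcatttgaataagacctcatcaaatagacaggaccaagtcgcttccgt
H2bc12, chr13:22035671-22035820, plus strand: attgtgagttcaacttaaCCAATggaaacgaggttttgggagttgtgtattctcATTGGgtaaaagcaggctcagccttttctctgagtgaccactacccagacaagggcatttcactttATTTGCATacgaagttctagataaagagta
H2bc8, chr13:23571250-23571399, plus strand: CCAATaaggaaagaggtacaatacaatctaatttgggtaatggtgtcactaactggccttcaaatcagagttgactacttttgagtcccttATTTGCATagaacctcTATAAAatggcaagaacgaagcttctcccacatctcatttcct
In the full windows of 300 bases, 250 before and 50 after the start, searched on both strands, 14 of 14 matched H2B genes held CCAAT, against 37.4% of all windows. The octamer stood in 6 of 14 H2B genes, in 11 of 59 matched members and in 1.74% of all windows. TATAAA stood in 33 of 59 members and 13.6% of all windows. Hist1h2bq and Hist1h2br had identical windows, with 0 differences in 300 bases, and held no octamer, nor did H2bc13 and H2bc11. H2bc12, which was higher, and H2bc8, which was lower, both held it. A match is a description of letters and not a measured binding site.

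H4 pairs with H3, and its 4 tested members all had positive log2 fold changes in CDH16KO-AngII against AngII, none of them called. H4c8 (chr13:23531050-23531519, plus strand) had 3.10, 4.36 and 6.54 CPM in AngII, 11.9, 8.49 and 8.07 in CDH16KO-AngII, and 4.42, 5.21 and 7.54 in GRPR-AngII. CDH16KO-AngII lay above both other groups, with a log2 fold change of 1.03 (SE 0.31) against AngII. H4c3 had 1.19, 2.01 and 1.32 CPM in AngII, 3.22, 2.72 and 2.09 in CDH16KO-AngII and 1.73, 1.34 and 2.11 in GRPR-AngII, and its CDH16KO-AngII values were above those of AngII and overlapped those of GRPR-AngII. H4c2 and H4c9 overlapped between all groups, with log2 fold changes of 1.01 and 0.41 against AngII. Unlike the 5 H2B genes, H4c8 and H4c3 were highest in CDH16KO-AngII 1, the library where those H2B genes were lowest in the group. Summed, H4 reached 12.7 ± 3.82 CPM in AngII, 21.4 ± 4.31 CPM in CDH16KO-AngII and 14.5 ± 2.32 CPM in GRPR-AngII (SD, n = 3).

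H3 had 2 tested genes. H3c15 (chr3:96238108-96239127, minus strand) averaged 2.72 ± 0.557, 2.89 ± 0.854 and 2.82 ± 0.723 CPM in AngII, CDH16KO-AngII and GRPR-AngII, so the groups overlapped. H3c14 (chr3:96246685-96248509, plus strand) had 1.05, 0.339 and 0.501 CPM in AngII, 1.41, 2.17 and 5.09 in CDH16KO-AngII, and 0.0805, 0.740 and 3.87 in GRPR-AngII. It was higher in CDH16KO-AngII than in AngII in all libraries, and its log2 fold change of 2.18 had an SE of 0.99 and was not called. H3c13 (chr3:96268654-96269141, plus strand), next by FPKM and under the filter, had 0 to 18 counts per library. The summed H3 level was 3.76 ± 0.861, 6.75 ± 1.71 and 5.14 ± 1.90 CPM.

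H3c14 lies inside the model of Gm20634 (chr3:96245554-96248509, plus strand), which also overlaps H2ac18 on the same strand. H2ac18 (chr3:96245497-96246082) was the only tested H2A gene and took 84.13% of the H2A sum. It had 23.8, 6.62 and 0 CPM in AngII, 16.7, 7.54 and 56.2 in CDH16KO-AngII, and 8.93, 5.44 and 67.6 in GRPR-AngII. The value of 0 allows up to 0.0683 CPM by counting error alone, so libraries of 1 group spanned from 0 to over 20 CPM and the groups overlapped. Gm20634 had 23.1, 43.6 and 62.8 CPM in AngII, 58.0, 48.6 and 10.5 in CDH16KO-AngII, and 50.2, 37.3 and 4.59 in GRPR-AngII. It was highest in AngII 3, where H2ac18 was at 0, and lowest in CDH16KO-AngII 3 and GRPR-AngII 3, where H2ac18 was highest, while between libraries 1 and 2 of those groups both genes were lower in number 2. The sum of H2ac18, Gm20634 and H3c14, formed after these values were seen, was 47.9, 50.6 and 63.3 CPM in AngII, 76.0, 58.3 and 71.8 in CDH16KO-AngII, and 59.2, 43.5 and 76.1 in GRPR-AngII. Between the lowest and the highest library H2ac18 took 0% and 88.89% of that sum. H2ac18 also matched Hist2h2aa2, a GENCODE M21 gene with no row in the deposited table, at 100% identity over 90.1% of the H2ac18 model. How reads were divided between these models was not tested. The log2 fold change of H2ac18 was 1.40 (SE 1.35) in CDH16KO-AngII and 1.43 in GRPR-AngII against AngII, neither called.

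**Figure D4:**
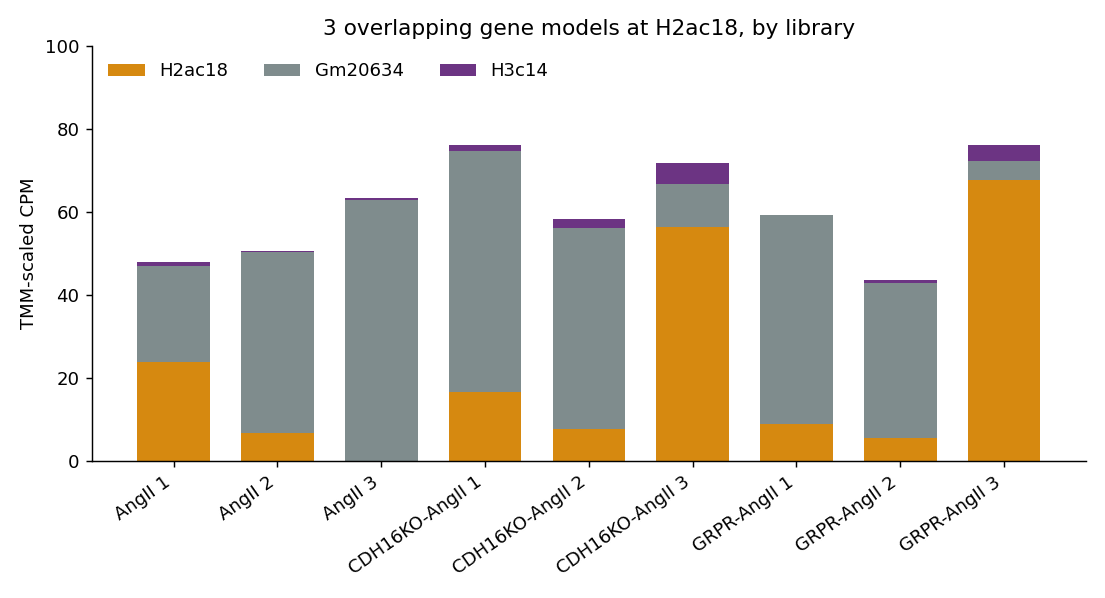
TMM-scaled CPM (y axis) of 3 overlapping gene models, H2ac18, Gm20634 and H3c14, stacked for each of the 9 libraries (x axis). The H2ac18 part ranges from 0 in AngII 3 to 67.6 CPM in GRPR-AngII 3, while the stacked height stays between 43.5 and 76.1 CPM.

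Hist1h2al (chr13:51202727-51203065, minus strand), outside the cluster and annotated as a processed pseudogene, matched H2ac18 and Gm20634 at 99.41% identity over its whole model. It had 17, 7 and 4 counts in AngII, 14, 414 and 491 in CDH16KO-AngII, and 3, 0 and 2 in GRPR-AngII. The high values came from CDH16KO-AngII 2 and 3, while CDH16KO-AngII 1 lay inside the AngII range. It was above the filter in 2 libraries and was not tested. The H2A sum was 11.8 ± 12.5, 35.2 ± 30.3 and 29.4 ± 35 CPM, and its groups overlapped. Without H2ac18 and Hist1h2al it was 1.51 ± 0.176, 2.38 ± 0.922 and 2.02 ± 0.866 CPM in AngII, CDH16KO-AngII and GRPR-AngII.

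H1 and H2B had the largest sums on the CPM scale, and 2 genes made up 98.15% of the H1 sum. H1f0 (chr15:79028450-79030504, plus strand), a linker histone of resting and differentiated cells, took 71.98% of the H1 sum. It had 207, 210 and 153 CPM in AngII, 159, 151 and 183 in CDH16KO-AngII, and 181, 125 and 118 in GRPR-AngII, and the groups overlapped. Its log2 fold change was -0.21 (SE 0.19) in CDH16KO-AngII and -0.43 in GRPR-AngII against AngII. H1f2, a linker histone whose model holds the stem-loop and runs on for 840 bases beyond it, had 71.2, 79.4 and 44.1 CPM in AngII, 47.2, 52.9 and 63.7 in CDH16KO-AngII, and 71.0, 70.3 and 41.3 in GRPR-AngII. H1f10 averaged 1.82 ± 0.219, 1.61 ± 0.787 and 1.14 ± 0.322 CPM and its GRPR-AngII libraries lay below those of AngII, with a log2 fold change of -0.68 that was not called (edgeR adjusted p = 0.7421). The H1 sum was 260.0 ± 51.7, 224 ± 27.3 and 205 ± 47.3 CPM.

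By mean FPKM, which allows genes to be compared, H2bc4 (128) stood first, then H1f0 (67.0), H1f2 (32.1), H2ac18 (29.0) and H2bc8 (25.8). H4c8 followed with 11.7. H1f0 and H2bc4 have no stem-loop in their models and H1f2 and H2bc8 run on beyond it, so of these 5 only the model of H2ac18 ended within 50 bases of one. Over classes of models the median of the mean FPKM was 0.143 for the 17 ending at the stem-loop, 0.241 for the 22 running on and 0.159 for the 29 without one. These are classes of annotation, since some models without a stem-loop stop at the coding sequence.

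Summed over a type, the ranges of CDH16KO-AngII and AngII stood apart in H2B, H3 and H4. The H2B sum was 242, 220 and 222 CPM in AngII, 185, 208 and 186 in CDH16KO-AngII, and 243, 237 and 230 in GRPR-AngII, so that it was lower in CDH16KO-AngII, 1.18-fold against AngII on the means, although 2 of its genes were called higher. Without H2bc4 and H2bc8, an exclusion chosen after the values were seen, it was 17.2 ± 0.363, 36.4 ± 9.95 and 13.8 ± 2.09 CPM, higher in CDH16KO-AngII by 2.12-fold. The H3 and H4 sums were higher in CDH16KO-AngII than in AngII in all libraries, by 1.80-fold and 1.69-fold on the means. Between CDH16KO-AngII and GRPR-AngII the ranges stood apart in H2B and H4 and overlapped in H3. H3c15 took 53.87% of the H3 sum and had a log2 fold change of 0.09 in that comparison, where H3c14 had 2.18. H3c14 lies within the model of Gm20634, which is no member. H3c15 matched both at 99.85% identity over 65.59% of its model. The division of reads between these models can therefore move the H3 sum. In GRPR-AngII against AngII the ranges of all 5 sums overlapped. Over the 19 tested members the log2 fold changes there ran from -0.68 (H1f10) to 1.43 (H2ac18), and the smallest edgeR adjusted p was 0.7316, for H1f0. Hist1h2bq stood at -0.17 (edgeR adjusted p = 0.9194) and H2bc13 at -0.16 (edgeR adjusted p = 0.9553). No p is given for a sum, since the members were chosen with results known.

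**Figure D5:**
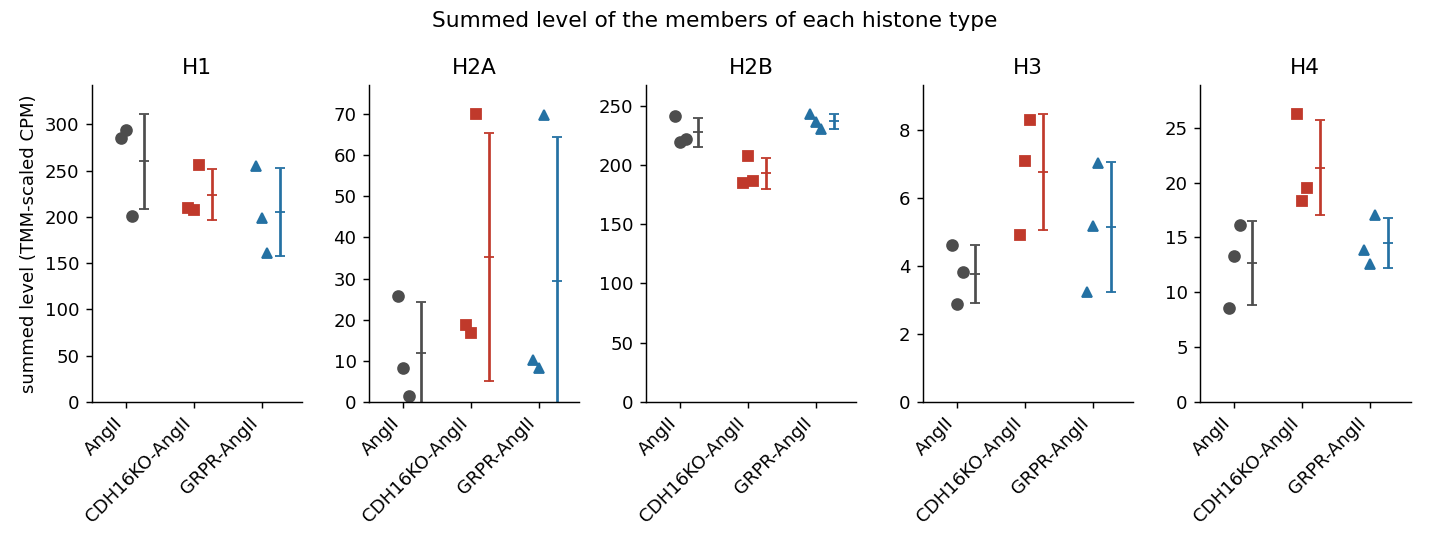
Summed level in TMM-scaled CPM (y axis, a separate scale from 0 for each panel) of the members of H1, H2A, H2B, H3 and H4 in the 3 groups (x axis); points are libraries, and the bar beside them is the mean ± 1 SD (n = 3), with lower ends under 0 not drawn. CDH16KO-AngII lies below AngII in H2B and above it in H3 and H4.

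Genes that process histone mRNA, carry histones to chromatin or drive S phase were listed to see whether they moved with these copies. In CDH16KO-AngII against AngII edgeR called 0 of 20 tested genes of histone mRNA processing, 0 of 10 replacement histones, 0 of 19 histone chaperones and acetylation factors, and 0 of 16 S phase genes. At an unadjusted p under 0.05, reached by 8.45% of all genes, these counts were 1, 0, 0 and 2, and DESeq2 also called 0 in each. The median log2 fold changes were 0.03, -0.08, 0.01 and -0.12, beside 0.01 over all genes tested. Slbp, which binds the stem-loop, averaged 14.4 ± 0.149 CPM for AngII, 13.4 ± 0.539 for CDH16KO-AngII and 14.8 ± 1.65 for GRPR-AngII (SD, n = 3). Npat, a coactivator of histone transcription at the G1/S boundary, averaged 8.16 ± 1.46, 8.80 ± 1.69 and 7.13 ± 1.08 CPM, and Casp8ap2, a component of the histone locus body that was under the filter, 3.67 ± 1.01, 3.42 ± 0.524 and 4.17 ± 0.991 CPM. The proliferation marker Mki67 averaged 4.52 ± 1.74 CPM for AngII, 2.56 ± 1.06 for CDH16KO-AngII and 4.84 ± 3.61 for GRPR-AngII. Top2a averaged 2.09 ± 0.545, 1.19 ± 0.568 and 1.71 ± 1.52 CPM. Both were under the filter, and their ranges overlapped between the groups. The 2 S phase genes with an edgeR unadjusted p under 0.05 were Mcm2 and Gins2, with log2 fold changes of -0.51 and 1.105 in CDH16KO-AngII against AngII. Pcna, the sliding clamp of replication, averaged 28.5 ± 5.29, 24.5 ± 4.74 and 24.4 ± 2.81 CPM. Summed, the S phase genes ran from 256 to 304 CPM in CDH16KO-AngII, 275 to 308 in AngII and 274 to 310 in GRPR-AngII, so the groups overlapped where the H2B copies did not. Immune and erythroid genes summed to 694 to 1045 CPM in CDH16KO-AngII and 312 to 1454 in AngII, also overlapping, with 0 of 16 called.

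In the other comparisons edgeR called 0 genes of each of these 5 lists as well. In GRPR-AngII against AngII 3 of their genes had an unadjusted p under 0.05 and DESeq2 called 0. In GRPR-AngII against CDH16KO-AngII 2 had an unadjusted p under 0.05, a level of 6.24% of all genes, and DESeq2 called 1, the neutrophil gene S100a9. The median log2 fold change of the immune and erythroid list was 0.50 in GRPR-AngII against AngII and 0.77 against CDH16KO-AngII, beside -0.01 over all genes tested in each.

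Other genes within the histone cluster were looked at for a change of the whole segment. Of 36 genes there that are no members, 6 were tested. In CDH16KO-AngII against AngII edgeR called 0 of the 6 and 0.168% of all genes. An edgeR unadjusted p under 0.05 was reached by 2 of the 6 and by 8.45% of all genes. The 6 had log2 fold changes from -0.69 (Hfe) to 0.36 (Zfp322a). Of the 21 genes called in that comparison over the whole genome, 5 lay on chromosome 13. The share of all tested genes on this chromosome was not computed, so nothing is read from that count. The other 3 beside Hist1h2bq and H2bc13 lay between positions 64248700 and 74564256, outside the cluster.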

How the data were processed

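RNA-seq of mouse kidney was analysed in 9 libraries, 3 per group. The authors deposited 1 table with FPKM and counts per gene, per the file headers, and the counts are whole numbers. GRCm38 (mm10) is named in the submitters' processing notes. The aligner, the counter and its use of strand remain not given in the sources used here, so the deposited counts are taken as estimated counts. From them CPM was computed over each library's total times its TMM factor, and edgeR 4.0.16 (R 4.3.3) fitted TMM-scaled counts of all 9 libraries with the quasi-likelihood test, for genes at 1 FPKM or more in 3 libraries or more, with a call at a Benjamini-Hochberg adjusted p under 0.05. The script was tested on simulated data. DESeq2 1.42.0 and limma 3.58.1 on log2(FPKM + 1) and log2(FPKM + 0.1) were alternatives. Shared sequence was found with BLAST+ 2.17.0 (at least 95% identity over at least 50% of a model). Totals set the precision: 3 counts are 0.04826 to 0.06833 CPM, and such floors cover counting error only.

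Members named are those called, the 3 of highest mean FPKM in each type and up to 15 with the largest fold change; the others, Hist1h2br among them, were named after their values were seen. Members, lists and rules were chosen with earlier results of these data known. Replicate libraries differed by more than sampling noise. Column titles spell the second group CHD16KO and sample titles CDH16KO.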

Additional observations from a re-analysis of the deposited data

How the results depend on the processing

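The number of called members depended on the processing. In CDH16KO-AngII against AngII the count of 2 became 1 with an FPKM minimum of 0.1, 1 with no filter, 1 in a fit of the 2 groups only, 0 with copies merged and 6 with DESeq2, and it ran from 0 to 3 when 1 library was left out. In GRPR-AngII against CDH16KO-AngII the count of 2 became 1, 5, 1, 0 and 6 in the same order, and 0 to 4 when 1 library was left out; the highest counts of both came without CDH16KO-AngII 1. In GRPR-AngII against AngII it was 0 in each of these settings, and no list gene was called under the settings tried with edgeR. With copies merged, H2bc4 and the 5 H2B genes stood in the same row, so that setting could not show a change of the 5 genes alone. All alternatives were planned except the sums without named members.

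With the replicate number as a block, 1 member was called in CDH16KO-AngII against AngII and 1 in GRPR-AngII against CDH16KO-AngII, Hist1h2bq in both, and H2bc13 in neither. Same-numbered libraries had correlations of their deviations from -0.1223 to 0.2977, with all 6 pairs of numbers 2 and 3 at 0.1342 or above and all 3 pairs of number 1 under 0.1, so the numbers were not taken to pair the samples.

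On the log2 ratio of group means, leaving out H1f0 and H1f2 moved the H1 sum to 0.0563 (CDH16KO-AngII against AngII), -0.89 (GRPR-AngII against AngII) and -0.94 (GRPR-AngII against CDH16KO-AngII). Leaving out H2bc4 and H2bc8 moved the H2B sum to 1.08, -0.31 and -1.40. As FPKM, the H2B sum in GRPR-AngII against AngII moved from 0.06 to -0.0063. The H2A sum in GRPR-AngII against CDH16KO-AngII ran from -1.94 to 0.73 when 1 library was left out, lowest without GRPR-AngII 3, and in GRPR-AngII against AngII from -0.36, again without GRPR-AngII 3, to 2.603. The causes were not tested, beyond the fewer genes or libraries that some settings hold. Depth limits most members: 28 of 68 had 0 counts in some library.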
